A study of Mus musculus with 9 samples.

Results

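Kidneys of mice with Ybx1 deleted from podocytes (ΔPod) were compared with wild-type kidneys (WT). The comparison used 6 of the 9 deposited RNA libraries, 3 of each genotype, and the members were taken from the labels alone. All mice were 16 weeks old on a C57Bl/6N background, and polyadenylated RNA of whole kidney had been sequenced. The labels give a supplier for the wild-type animals, and they do not name the promoter that drove the deletion, the sex of the animals or whether each library came from a separate animal. The remaining 3 libraries, from a Ybx1 mutant that podocytes cannot secrete, entered the fit to estimate the spread and are not described.

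Ybx1 encodes the Y-box binding protein, a cold shock domain protein that binds RNA and DNA, packages messenger RNA and can leave the cell. Podocytes wrap the glomerular capillaries and form the filtration slits. They are few, so RNA of whole kidney comes mostly from tubule cells, above all from the proximal tubule, which reabsorbs the filtrate, secretes organic ions and breaks down amino acids, lipids and foreign compounds. The comparison addresses which transcripts of the whole kidney, glomerular or tubular, differ when podocytes lack Ybx1.

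Counts per gene were scaled by library total and TMM factor (CPM). Values given as 3 numbers belong to libraries 1, 2 and 3 of a group, and fold changes are on the log2 scale, ΔPod against WT, with their standard error (SE) from the edgeR fit. A gene is called where the edgeR quasi-likelihood test gave a Benjamini-Hochberg adjusted p below 0.05. Library totals ran from 33169471 to 46882253 counts, and 3 counts over a group corresponded to 0.0263 CPM in WT and 0.0253 CPM in ΔPod. The libraries also differed in ways the genotype does not define. Longer transcripts had relatively more counts in WT 1, WT 3 and ΔPod 3, and shorter transcripts in WT 2, ΔPod 1 and ΔPod 2. Cytosolic ribosomal protein genes took 1.07, 2.21 and 1.01% of the counts in WT and 7.27, 3.9 and 1.04% in ΔPod, and mitochondrially encoded transcripts took 11.6% in ΔPod 3 against 1.5 to 3.97% in the other libraries. The 4 Y-linked genes tested read 11 to 40.6 CPM in WT and had 0 counts in ΔPod, and Xist, the transcript of X inactivation, had no count in WT and 17, 18.8 and 124 CPM in ΔPod. Genotype and sex of the animals therefore cannot be told apart in any value below.

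Ybx1 itself (chromosome 4, 119277981 to 119294604 in mm10) read 1189.7, 1585 and 1185 CPM in WT and 1167, 881 and 605 CPM in ΔPod. All ΔPod values lay below the WT values, and the difference did not pass the test (log2 fold change -0.58, SE 0.38, adjusted p = 0.465). With the slope of the counts on transcript length as a covariate it was -0.96 (adjusted p = 0.000877). This was the only 1 of 16 alternative fits that called Ybx1, and the fold change ran from -0.96 to -0.36 across the fits. Of the 10 podocyte markers, 0 were called. The log2 fold change was -0.31 for Podxl, a sialomucin of the foot process, and 0.18 for Nphs1, the slit diaphragm protein nephrin, with Synpo at -0.06, Wt1 at 0.09, Ptpro at 0.1, Plce1 at 0.22, Cdkn1c at -0.04 and Nes at -0.05. Summed over the 10 markers, WT libraries had 556, 269.9 and 558 CPM and ΔPod libraries 143, 247 and 919 CPM. The sums overlapped, and ΔPod 3 was the highest and ΔPod 1 the lowest of the 6 libraries. In RNA of whole kidney, fewer cells of a type and less RNA per cell cannot be told apart.

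The summed markers of most other cell types overlapped between the groups as well, and those of fat, lymphocytes, mesangium with smooth muscle, liver and adrenal did not. The 10 proximal tubule markers summed to 28297, 18978 and 27554 CPM in WT and 11416, 13878 and 22955 CPM in ΔPod, with 0 called and a median fold change of -0.62. Fat cell markers summed to 0.23 to 0.35 CPM in WT and to 143, 6.68 and 0.52 CPM in ΔPod, so that ΔPod 1 and ΔPod 2 held transcripts of fat at a level that WT and ΔPod 3 did not. Lymphocyte markers had higher sums in ΔPod (given beside Gimap8), and mesangium and smooth muscle markers summed to 191 to 252 CPM in WT and 277 to 433 CPM in ΔPod. Liver markers, with 1 called member, Serpina1a, were lower, at 147 to 180.5 CPM in WT and 80.2 to 98.6 CPM in ΔPod, and adrenal markers were near 0, at 0.05 to 0.14 CPM in WT and 0.25 to 0.91 CPM in ΔPod. Urothelium markers summed to 4.65 to 8.29 CPM in WT and to 40.9, 8.74 and 0.56 CPM in ΔPod. Macrophage markers (353 to 398 CPM in WT, 329 to 439 CPM in ΔPod) and endothelium markers overlapped between the groups. Of these lists only that of liver held a called gene, and the part of these cells in the results below was not tested unless a value is given.

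**Figure D1:**
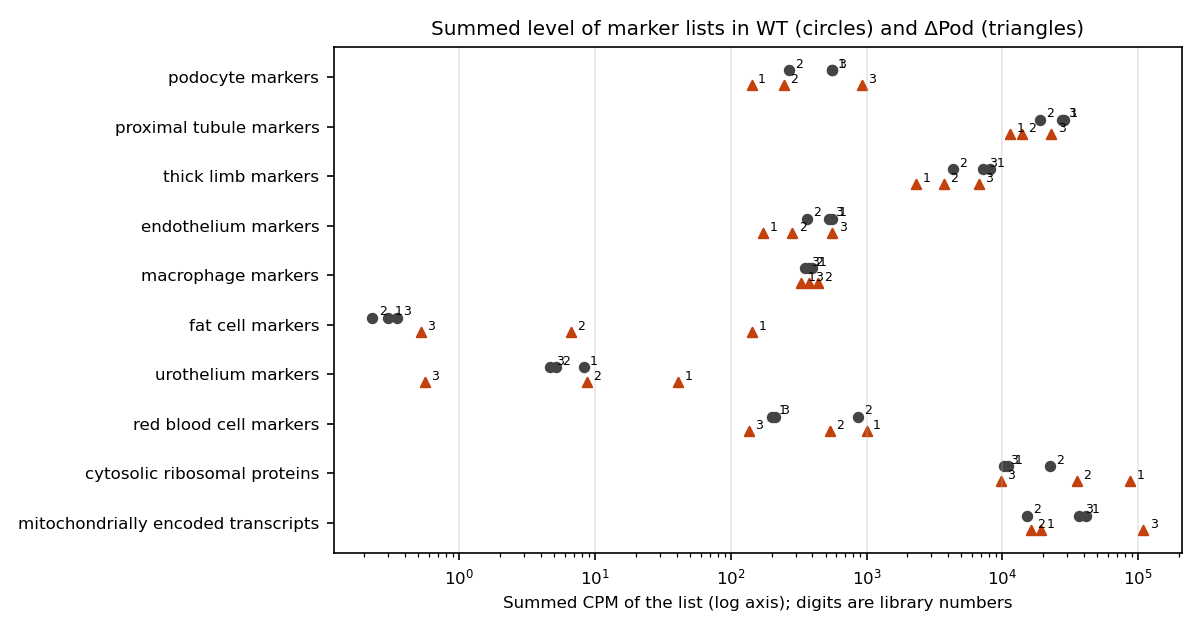
Summed CPM (log axis) of marker and ribosomal or mitochondrial gene lists in each WT (circles) and ΔPod (triangles) library, with the library number beside each point. Fat cell markers reach 143 CPM in ΔPod 1 against at most 0.35 CPM in WT, while podocyte, macrophage and endothelium markers overlap between the groups.

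Of 18067 genes tested, 178 were called (0.985%), 72 higher (0.399%) and 106 lower (0.587%) in ΔPod. The median fold change of all tested genes was 0.08. Among the called genes 95 had a fold change of at least 3 in either direction, 30 lay under 2, and the smallest was 1.21. None of the 178 overlapped between the groups, where 18.2% of all tested genes did not (8.73% higher and 9.47% lower). Of the called genes 28 stood on a list of sex-biased, Y-linked or X-escape genes and 150 stood on none of these, 64 of them higher and 86 lower. That such a gene is absent from the lists does not show that it is equal between the sexes. The difference was also taken within the libraries rich in long transcripts (ΔPod 3 against WT 1 and WT 3). The same was done within those rich in short transcripts (ΔPod 1 and ΔPod 2 against WT 2). Both differences had the same sign for all 178 called genes and for 54.3% of all tested genes. For the 178 this follows from the lack of overlap between their groups, so it does not test an effect of transcript length.

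**Figure D2:**
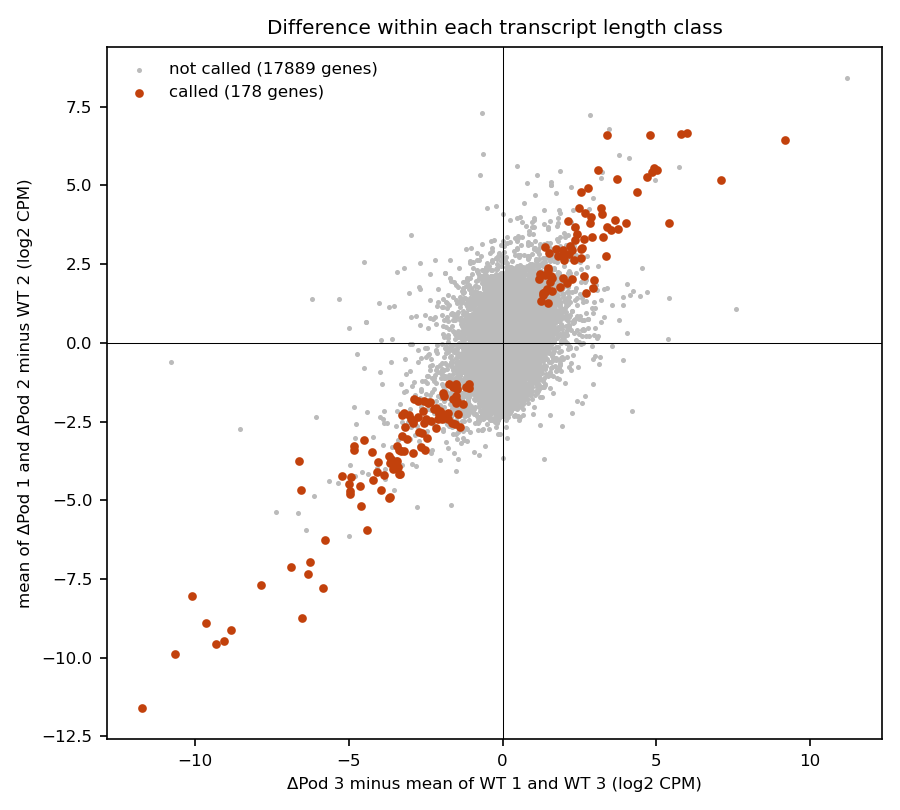
Difference in log2 CPM between ΔPod and WT for each of 18067 tested genes, in the libraries rich in long transcripts (x axis) and in those rich in short transcripts (y axis), with the 178 called genes in orange. All called genes lie in the lower left or upper right quadrant, which follows from the lack of overlap between their groups.

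The number of calls depended on single libraries. Leaving out WT 1 gave 26 called genes, leaving out WT 2 gave 34 and leaving out WT 3 gave 23. Leaving out ΔPod 1 gave 91, leaving out ΔPod 2 gave 36 and leaving out ΔPod 3 gave 411. For the 103 called genes selected by rank, list or level, the numbers still called in these 6 fits were, in the same order, 25, 30, 23, 64, 30 and 101. In all, 19 genes remained called whichever of the 6 libraries was left out. These were Abcb1b, Slc17a2 and Slc7a12, which were higher, and Apoh, Degs2, Cndp2, Fmo5, Cyp2j13, Pzp, Acsm3, Serpinf2, Cyp7b1, Kdm5d, Serpina1a, Eif2s3y, Serpina1d, Wdfy1, Adh1 and Nat8f5, which were lower. Every other gene described below lost its call without at least 1 library. All 178 kept their direction in every alternative fit that tested them.

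At a log2 CPM averaging 1 or more, the highest ranked changes were in Hdc, Slc17a2, Nup62cl, Tmprss6, Slc7a12, Igf2, Slc22a29, Galr2, Slc22a27 and Cbr1 for genes that rose (8.32 down to 4.13). For genes that fell they were in Ddx3y, Eif2s3y, Uty, Slco1a1, Kdm5d, Cyp2j13, Pzp, Mpped1, Slc7a13 and Apoh (-13.41 to -7.69). The account that follows goes by function and gives mostly the genes ranked 11 to 40 in each direction, of 47 ranked genes that rose and 82 that fell. Counts of called list members stand beside 0.399% of all tested genes called higher and 0.587% called lower.

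Transporters of organic anions and cations moved in both directions. The carriers of the Slc22 and Slco families bring drugs, urate, bile acids and steroid conjugates across the proximal tubule membranes, and of 39 tested members of this list with the ABC exporters, 3 rose and 3 fell, with a median of -0.23. Slc22a12, which encodes the urate transporter URAT1 of the brush border (chromosome 19, 6535845 to 6543032), fell from 2897, 3201 and 2601 CPM in WT to 595, 962 and 612 CPM in ΔPod (log2 fold change -2, SE 0.32, adjusted p = 0.0299). The highest ΔPod value, in ΔPod 2, lay well below the lowest WT value. Abcb1b, a P-glycoprotein gene that exports lipophilic compounds (chromosome 5, 8798147 to 8866315), rose from 4.74, 3.61 and 4.3 CPM in WT to 29.1, 29.9 and 27.2 CPM in ΔPod (log2 fold change 2.77, SE 0.26, adjusted p = 0.00536). Its 3 ΔPod values lay close together. Slc22a12 and Slco1a1 stood on the male-biased list. Abcb1b stood on neither sex list, which does not show that it is equal between the sexes. Slco1a1, an organic anion transporting polypeptide, read 374, 526 and 537 CPM in WT and 0.145, 0.0938 and 0.0806 CPM in ΔPod.

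A cluster of organic anion transporter genes on chromosome 19 held calls in opposite directions. Slc22a29 (chromosome 19, 8160165 to 8218900) rose from 3.02, 3.12 and 2.82 CPM in WT to 103, 76.2 and 61.1 CPM in ΔPod (log2 fold change 4.74, SE 0.48, adjusted p = 0.00606), and Slc22a27 (chromosome 19, 7864388 to 7966027) rose from 0.305, 0.315 and 0.346 CPM in WT to 8.97, 5.53 and 3.43 CPM in ΔPod (log2 fold change 4.2, SE 0.73, adjusted p = 0.0424). Slc22a30 (chromosome 19, 8335371 to 8405111) fell from 115, 181 and 133 CPM in WT to 21, 16.3 and 4.29 CPM in ΔPod (log2 fold change -3.37, SE 0.62, adjusted p = 0.0489). Its neighbour Slc22a28 read 147, 213 and 156 CPM in WT and 48.9, 32 and 10.2 CPM in ΔPod, which did not pass (log2 fold change -2.5, adjusted p = 0.245), and Slc22a19 and Slc22a26 of the same chromosome were not called (fold changes 1.44 and -0.28). In all 3 called genes of the cluster, ΔPod 3 had the lowest of the ΔPod values. Slc22a29 and Slc22a27 stood on the female-biased list and Slc22a28 and Slc22a30 on the male-biased list. Of the other Slc22 genes averaging 1 or more on the log2 CPM scale, Slc22a6 (OAT1) and Slc22a2 (OCT2), transporters of the blood side of the tubule cell, Slc22a18 and Slc22a22 lay below WT in every ΔPod library without passing (fold changes -2.29, -1.95, -1.36 and -1.58). Slc22a4, Slc22a5, Slc22a7, Slc22a8, Slc22a13, Slc22a15, Slc22a17, Slc22a21 and Slc22a23 overlapped between the groups, with fold changes from -0.68 for Slc22a17 to 0.41 for Slc22a21. These copies are alike in sequence, so reads could be shared between them.

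The 250 bases before the start of Slc22a29 and Slc22a30 are printed because the genes start 0.186 Mb apart, have like promoters and moved in opposite directions. They come from RefSeq on GRCm38.p6, on the minus strand, and capitals mark aligned runs of at least 10 identical bases. Slc22a29 covers chr19:8218901-8219150 and Slc22a30 covers chr19:8405106-8405355. Of 207 aligned bases, 173 were identical (83.6%). The promoter of Slc22a28, which was not called, was 97.5% identical to that of Slc22a30 and 82.2% identical to that of Slc22a29.
Slc22a29: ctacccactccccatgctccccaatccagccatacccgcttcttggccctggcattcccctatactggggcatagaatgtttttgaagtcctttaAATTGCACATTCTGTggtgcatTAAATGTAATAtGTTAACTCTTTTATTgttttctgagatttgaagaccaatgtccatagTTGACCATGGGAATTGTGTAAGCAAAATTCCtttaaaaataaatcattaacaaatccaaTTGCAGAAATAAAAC
Slc22a30: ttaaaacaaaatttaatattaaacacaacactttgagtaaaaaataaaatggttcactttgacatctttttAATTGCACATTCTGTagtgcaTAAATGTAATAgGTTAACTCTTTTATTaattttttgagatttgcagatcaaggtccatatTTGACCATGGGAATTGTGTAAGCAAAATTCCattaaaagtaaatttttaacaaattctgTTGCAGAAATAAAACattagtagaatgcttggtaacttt

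Among the amino acid transporters, 1 of 32 tested members rose (Slc7a12) and 1 fell (Slc7a13). They stood on the female-biased and the male-biased list. Of the other Slc7 genes averaging 1 or more on the log2 CPM scale, Slc7a6 and Slc7a9, the light chain of the cystine transporter, lay above WT in every ΔPod library without passing (fold changes 0.8 and 0.63). Slc7a1, Slc7a2, Slc7a4, Slc7a5, Slc7a7 and Slc7a8 overlapped. Of 35 sugar, phosphate, sulfate and carboxylate transporters 1 rose and 1 fell (median -0.47). Slc17a2, of the sodium-phosphate family, rose from 0.166, 0.229 and 0.124 CPM in WT to 27.9, 29.1 and 12.4 CPM in ΔPod (log2 fold change 7.04, SE 0.51, adjusted p = 0.00243). Slc13a5, a sodium-citrate cotransporter, fell from 1.39, 1.26 and 1.06 CPM in WT to 0.217, 0.0703 and 0.141 CPM in ΔPod (log2 fold change -3.12, SE 0.57, adjusted p = 0.048), at levels of few counts in ΔPod.

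Among plasma proteins, proteases and their inhibitors most of the called transcripts, 11 of 13, were lower. These proteins are made chiefly by the liver, and the kidney transcribes some of them in its tubules. Of 68 tested members 2 rose (Tmprss6 and Serpina6) and 11 fell, where 0.587% of all genes fell, while the median over the list was 0.01. Serpinf2, which encodes α2-antiplasmin, the inhibitor of plasmin (chromosome 11, 75431732 to 75439591), fell from 656, 500.2 and 586 CPM in WT to 33.8, 77.7 and 57.2 CPM in ΔPod (log2 fold change -3.37, SE 0.36, adjusted p = 0.00791). Its highest ΔPod value, in ΔPod 2, lay far below its lowest WT value. Proc, which encodes the anticoagulant protein C, fell from 252, 263 and 244 CPM in WT to 71.1, 93.4 and 86.1 CPM in ΔPod (log2 fold change -1.6, SE 0.23, adjusted p = 0.0208). Itih2, a heavy chain of the inter-alpha-trypsin inhibitors that binds hyaluronan, fell from 8.87, 6.53 and 8.97 CPM in WT to 0.76, 1.24 and 0.947 CPM in ΔPod (log2 fold change -3.04, SE 0.33, adjusted p = 0.00791). Serpinc1 (antithrombin) and F2 (prothrombin) stood at low levels and also fell, to 0.579, 0.516 and 0.564 CPM from 3.11, 2.18 and 3.11 CPM (log2 fold change -2.33, adjusted p = 0.0138) and to 0.796, 0.375 and 0.262 CPM from 3.44, 2.92 and 1.9 CPM (log2 fold change -2.55, adjusted p = 0.0499). Hrg, the histidine-rich glycoprotein of plasma, fell from 11.9, 6.87 and 14.5 CPM in WT to 0.0723, 0.0469 and 0.564 CPM in ΔPod (log2 fold change -5.52, adjusted p = 0.0481), with the highest ΔPod value in ΔPod 3.

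Other secreted proteins and proteases outside that list also moved. Azgp1, which encodes zinc-alpha-2-glycoprotein, a secreted protein related to MHC class I (chromosome 5, 137981520 to 137990233), fell from 157, 213 and 159 CPM in WT to 15.5, 11.1 and 13.4 CPM in ΔPod (log2 fold change -3.72, SE 0.41, adjusted p = 0.00791). Cpe, carboxypeptidase E, which trims prohormones, fell from 89, 69.5 and 78.3 CPM in WT to 13.9, 15.7 and 19.8 CPM in ΔPod (log2 fold change -2.26, SE 0.28, adjusted p = 0.0118). Cpb2, the carboxypeptidase of plasma that slows clot breakdown, rose from 0.832, 0.859 and 1.06 CPM in WT to 3.4, 3.91 and 2.22 CPM in ΔPod (log2 fold change 1.79, adjusted p = 0.0452). Tmprss9, a membrane serine protease, fell from 10.6, 7.04 and 11 CPM in WT to 0.326, 0.352 and 1.01 CPM in ΔPod (log2 fold change -4.06, SE 0.5, adjusted p = 0.0115), in the opposite direction to Tmprss6, which rose from 0.0832, 0 and 0.0988 CPM in WT to 3.91, 6.89 and 8 CPM in ΔPod (log2 fold change 6.59, adjusted p = 0.00791). Tmprss2, the third tested member of that family averaging 1 or more on the log2 CPM scale, was not called (fold change 0.17). Of 6 tested liver markers Serpina1a was called and the others were not. Alb (albumin) overlapped between the groups, at 9.18, 5.24 and 10.5 CPM in WT and 6.33, 7.45 and 23.2 CPM in ΔPod. Ttr (transthyretin) read 106, 119 and 146 CPM in WT and 63.4, 72.8 and 47.7 CPM in ΔPod. It lay below WT in every ΔPod library without passing (adjusted p = 0.285).

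The α1-antitrypsin copies on chromosome 12 moved together. Serpina1a (chromosome 12, 103853589 to 103863562) fell from 22.9, 19.9 and 16.1 CPM in WT to 0.76, 1.24 and 0.584 CPM in ΔPod (log2 fold change -4.5, SE 0.46, adjusted p = 0.00606), Serpina1d (chromosome 12, 103763594 to 103773592) fell from 89.8, 88.1 and 79 CPM in WT to 4.09, 7.76 and 7.94 CPM in ΔPod (log2 fold change -3.7, SE 0.36, adjusted p = 0.00592), and Serpina1b (chromosome 12, 103728156 to 103830373) fell from 8.48, 6.99 and 6.87 CPM in WT to 0.217, 1.05 and 0.564 CPM in ΔPod (log2 fold change -3.58, SE 0.54, adjusted p = 0.0239). All ΔPod values lay below all WT values in each of the 3. Serpina1f, a relative in the same cluster, read 154, 145 and 134 CPM in WT and 311, 325 and 217 CPM in ΔPod and was not called (log2 fold change 0.98, adjusted p = 0.152), and Serpina10 overlapped. Serpina6, which encodes the corticosteroid-binding globulin, had no count in WT and 0.217, 0.352 and 0.161 CPM in ΔPod (adjusted p = 0.0344). The copies Serpina1b and Serpina1d overlap in the annotation and the 3 genes are nearly identical, so the split of reads between them is uncertain.

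The promoters of the 3 antitrypsin copies are printed because their transcripts fell together. They are the 250 bases before each start, from RefSeq on GRCm38.p6, minus strand, at chr12:103863620-103863869 for Serpina1a, chr12:103738190-103738439 for Serpina1b and chr12:103773634-103773883 for Serpina1d. They were 93.1 to 93.8% identical pairwise. Capitals mark GTTAAT, part of the motif that the tubule and liver factor HNF1 binds. Each of the 3 also holds TGTTCT, which is described below and is not in capitals.
Serpina1a: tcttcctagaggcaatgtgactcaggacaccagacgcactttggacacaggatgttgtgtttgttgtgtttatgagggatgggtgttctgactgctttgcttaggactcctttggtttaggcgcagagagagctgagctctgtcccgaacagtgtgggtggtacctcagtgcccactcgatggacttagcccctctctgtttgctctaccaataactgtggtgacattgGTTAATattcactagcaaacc
Serpina1b: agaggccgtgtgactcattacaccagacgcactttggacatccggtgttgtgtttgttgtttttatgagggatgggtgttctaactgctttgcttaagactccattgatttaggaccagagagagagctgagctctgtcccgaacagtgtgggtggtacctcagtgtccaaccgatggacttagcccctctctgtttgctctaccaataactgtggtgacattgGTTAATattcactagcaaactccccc
Serpina1d: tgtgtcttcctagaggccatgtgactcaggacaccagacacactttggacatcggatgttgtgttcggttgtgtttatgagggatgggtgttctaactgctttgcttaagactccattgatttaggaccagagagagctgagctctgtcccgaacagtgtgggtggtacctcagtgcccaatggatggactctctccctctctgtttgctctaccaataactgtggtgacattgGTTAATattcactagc

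The motif GTTAAT was searched on both strands in the windows of all genes with a RefSeq promoter, 12316 tested genes with 15679 windows. It lay in 4.87% of all windows, in 3.12% of the windows of higher genes (2 of 64) and in 14.1% of those of lower genes (12 of 85), 3 of which were the antitrypsin copies. TGTTCT, part of the motif bound by androgen and glucocorticoid receptors, lay in 11.6% of all windows, 14.1% for higher and 18.8% for lower genes. The antitrypsin copies were among the lower genes with this match. TTCNNNGAA, the STAT5 motif, lay in 6.1% of all windows, 12.5% (8 windows) for higher and 4.71% (4 windows) for lower genes. A match describes letters in a window and not a bound site.

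Cytochrome P450 genes, whose enzymes oxidise foreign compounds and lipids, fell where they were called. Of 45 tested cytochrome P450 genes 0 rose and 7 fell, with a median of -0.08. Without regard to the test, 6 lay above and 12 below WT in every ΔPod library (8.73% and 9.47% of all genes did). Cyp4a14 lay above WT in every ΔPod library without passing (log2 fold change 5.41, adjusted p = 0.177). Cyp4b1, which hydroxylates fatty acids and small toxicants (chromosome 4, 115624725 to 115647723), fell from 4761, 3496 and 4999.7 CPM in WT to 58.6, 159.6 and 199 CPM in ΔPod (log2 fold change -4.99, SE 0.74, adjusted p = 0.0223). Cyp2e1, which oxidises ethanol and solvents (chromosome 7, 140763739 to 140774987), fell from 1861, 1403 and 1720.3 CPM in WT to 41, 54.7 and 143 CPM in ΔPod (log2 fold change -4.38, SE 0.55, adjusted p = 0.012). In both, ΔPod 1 was the lowest and ΔPod 3 the highest ΔPod library, and the groups were far from overlapping. Cyp7b1, an oxysterol hydroxylase, fell from 237, 219 and 187 CPM in WT to 1.7, 1.73 and 2.7 CPM in ΔPod (log2 fold change -6.71, SE 0.41, adjusted p = 0.00151). Cyp4a12a, a fatty acid hydroxylase, fell from 114, 80.4 and 189 CPM in WT to 0.181, 0.516 and 2.5 CPM in ΔPod (log2 fold change -6.88, adjusted p = 0.0313). Cyp2f2 fell from 4.52, 3.29 and 4.05 CPM in WT to 0.398, 0.821 and 0.726 CPM in ΔPod (log2 fold change -2.59, adjusted p = 0.0223). Cyp2a4 fell from 621, 633 and 559.5 CPM in WT to 208, 271 and 193 CPM in ΔPod (log2 fold change -1.43, adjusted p = 0.0444). It stood on the female-biased list, and its sex bias in kidney was not tested. Cyp2j13, Cyp7b1, Cyp4a12a and Cyp2e1 stood on the male-biased list.

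Fmo5, a flavin-containing monooxygenase (chromosome 3, 97628804 to 97655282), fell from 197, 125 and 193 CPM in WT to 6.37, 5.67 and 10.5 CPM in ΔPod (log2 fold change -4.51, SE 0.39, adjusted p = 0.00492). Adh1, the alcohol dehydrogenase that also oxidises retinol (chromosome 3, 138260991 to 138290698), fell from 767, 813 and 833 CPM in WT to 73.1, 77.4 and 87.4 CPM in ΔPod (log2 fold change -3.34, SE 0.32, adjusted p = 0.00574). WT and ΔPod values of Adh1 each lay close together, and this gene, which stood on the female-biased list, was lower in ΔPod. The carbonyl, aldehyde and alcohol enzymes as a list had 3 of 65 tested members higher and 6 lower (median -0.11). Cbr1, which reduces carbonyls, rose from 44.3, 61.6 and 38.8 CPM in WT to 1283, 859 and 389 CPM in ΔPod (log2 fold change 4.13, SE 0.49, adjusted p = 0.00954). Setd4, a lysine methyltransferase gene that starts beside Cbr1 on the other strand of chromosome 16, rose from 0.499, 0.859 and 0.815 CPM in WT to 7.85, 6.12 and 3.22 CPM in ΔPod (log2 fold change 2.98, SE 0.45, adjusted p = 0.0224). Both were highest in ΔPod 1 and lowest in ΔPod 3, and reads could be shared between the strands if counting ignored strand.

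Carboxylesterases, cleave ester drugs and lipid esters. Of 11 tested members 4 fell and 0 rose, 8 lay below WT in every ΔPod library, and the median was -1.48. Over all tested genes 0.587% fell and 9.47% lay below WT in every ΔPod library. The summed level was 1837, 1732 and 1800.0 CPM in WT and 550.4, 549.5 and 407 CPM in ΔPod. Ces1f (chromosome 8, 93256236 to 93279747) fell from 990.3, 952 and 968 CPM in WT to 105, 119 and 42.9 CPM in ΔPod (log2 fold change -3.45, SE 0.41, adjusted p = 0.00954). Ces2c (chromosome 8, 104847068 to 104854483) fell from 251, 243 and 241 CPM in WT to 42.6, 67.8 and 41 CPM in ΔPod (log2 fold change -2.28, SE 0.29, adjusted p = 0.0123). Ces1g fell from 27.3, 20.4 and 54.6 CPM in WT to 1.23, 1.73 and 0.343 CPM in ΔPod (log2 fold change -4.95, adjusted p = 0.0287), and Ces2h fell from 6.99, 5.84 and 6.57 CPM in WT to 0.362, 0.68 and 1.13 CPM in ΔPod (log2 fold change -3.14, adjusted p = 0.0303). Ces1e read 124, 112 and 118 CPM in WT and 37.9, 35.5 and 40.1 CPM in ΔPod and did not pass (adjusted p = 0.0569), and Ces2b, Ces2e and Ces2g overlapped. The genes lie in clusters of like copies on chromosome 8, Ces1f stood on the male-biased list, and the family was chosen after its values were seen. Ephx2, the soluble epoxide hydrolase, which opens epoxides of fatty acids, fell from 674, 512 and 624 CPM in WT to 88, 109 and 161 CPM in ΔPod (log2 fold change -2.34, SE 0.38, adjusted p = 0.0306).

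Conjugating enzymes went both ways. Of 56 tested glutathione, glucuronide, sulfate and acetyl conjugation enzymes 4 rose and 4 fell, with a median of 0.37. The glutathione transferases of the alpha class rose where called. Gsta4, which conjugates products of lipid peroxidation, rose from 40.8, 38.8 and 31 CPM in WT to 432, 219 and 209 CPM in ΔPod (log2 fold change 2.96, SE 0.48, adjusted p = 0.0313), Gsta2 rose from 96.7, 86.3 and 80.5 CPM in WT to 305, 340.5 and 381 CPM in ΔPod (log2 fold change 1.96, SE 0.26, adjusted p = 0.0136), and Gsta5 rose from 3.74, 3.24 and 2.99 CPM in WT to 50.5, 32.8 and 45.7 CPM in ΔPod (log2 fold change 3.69, SE 0.45, adjusted p = 0.0101). Gsta1 lay above WT in every ΔPod library (log2 fold change 1.7, adjusted p = 0.0528), and Gsta3 overlapped (log2 fold change 0.56, adjusted p = 0.484). Gsta4 was on the male-biased list and rose, Gsta2 was on the female-biased list. ΔPod 1 was the highest for Gsta4 and ΔPod 3 for Gsta2.

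Glucuronosyltransferases divided within a family. Ugt1a2 (chromosome 1, 88200601 to 88218997) rose from 77.7, 58.4 and 72.7 CPM in WT to 372, 419 and 767 CPM in ΔPod (log2 fold change 2.9, SE 0.36, adjusted p = 0.0113). It shares its last exons with the other Ugt1a genes, of which Ugt1a1, Ugt1a5, Ugt1a6a, Ugt1a6b, Ugt1a8, Ugt1a9 and Ugt1a10 read nearly alike and were not called (fold changes 0.9 to 1). Ugt2b34 rose from 29.5, 22.7 and 32.1 CPM in WT to 115, 86.1 and 91.7 CPM in ΔPod (log2 fold change 1.79, SE 0.26, adjusted p = 0.0216), whereas Ugt2b38 fell from 966, 1217 and 1061 CPM in WT to 129, 102 and 35.8 CPM in ΔPod (log2 fold change -3.6, SE 0.58, adjusted p = 0.0313). Ugt2b37 and Ugt2b5 lay below WT in every ΔPod library without passing (fold changes -5.39 and -2.22). Ugt8a, which adds galactose to ceramide, fell from 137, 181 and 128 CPM in WT to 9.69, 9.54 and 3.49 CPM in ΔPod (log2 fold change -4.3, SE 0.5, adjusted p = 0.00954). In Ugt2b38, Ugt2b37 and Ugt8a the lowest value was in ΔPod 3, and Ugt8a stood on the male-biased list. Of the N-acetyltransferase 8 family, Nat8f5 fell from 19.4, 38.8 and 33.9 CPM in WT to 2.39, 1.78 and 1.71 CPM in ΔPod (log2 fold change -3.97, SE 0.36, adjusted p = 0.0051) and Nat8f2 fell from 60.5, 62.4 and 68.4 CPM in WT to 15.5, 19.5 and 11 CPM in ΔPod (log2 fold change -2.06, SE 0.29, adjusted p = 0.017).

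**Figure D3:**
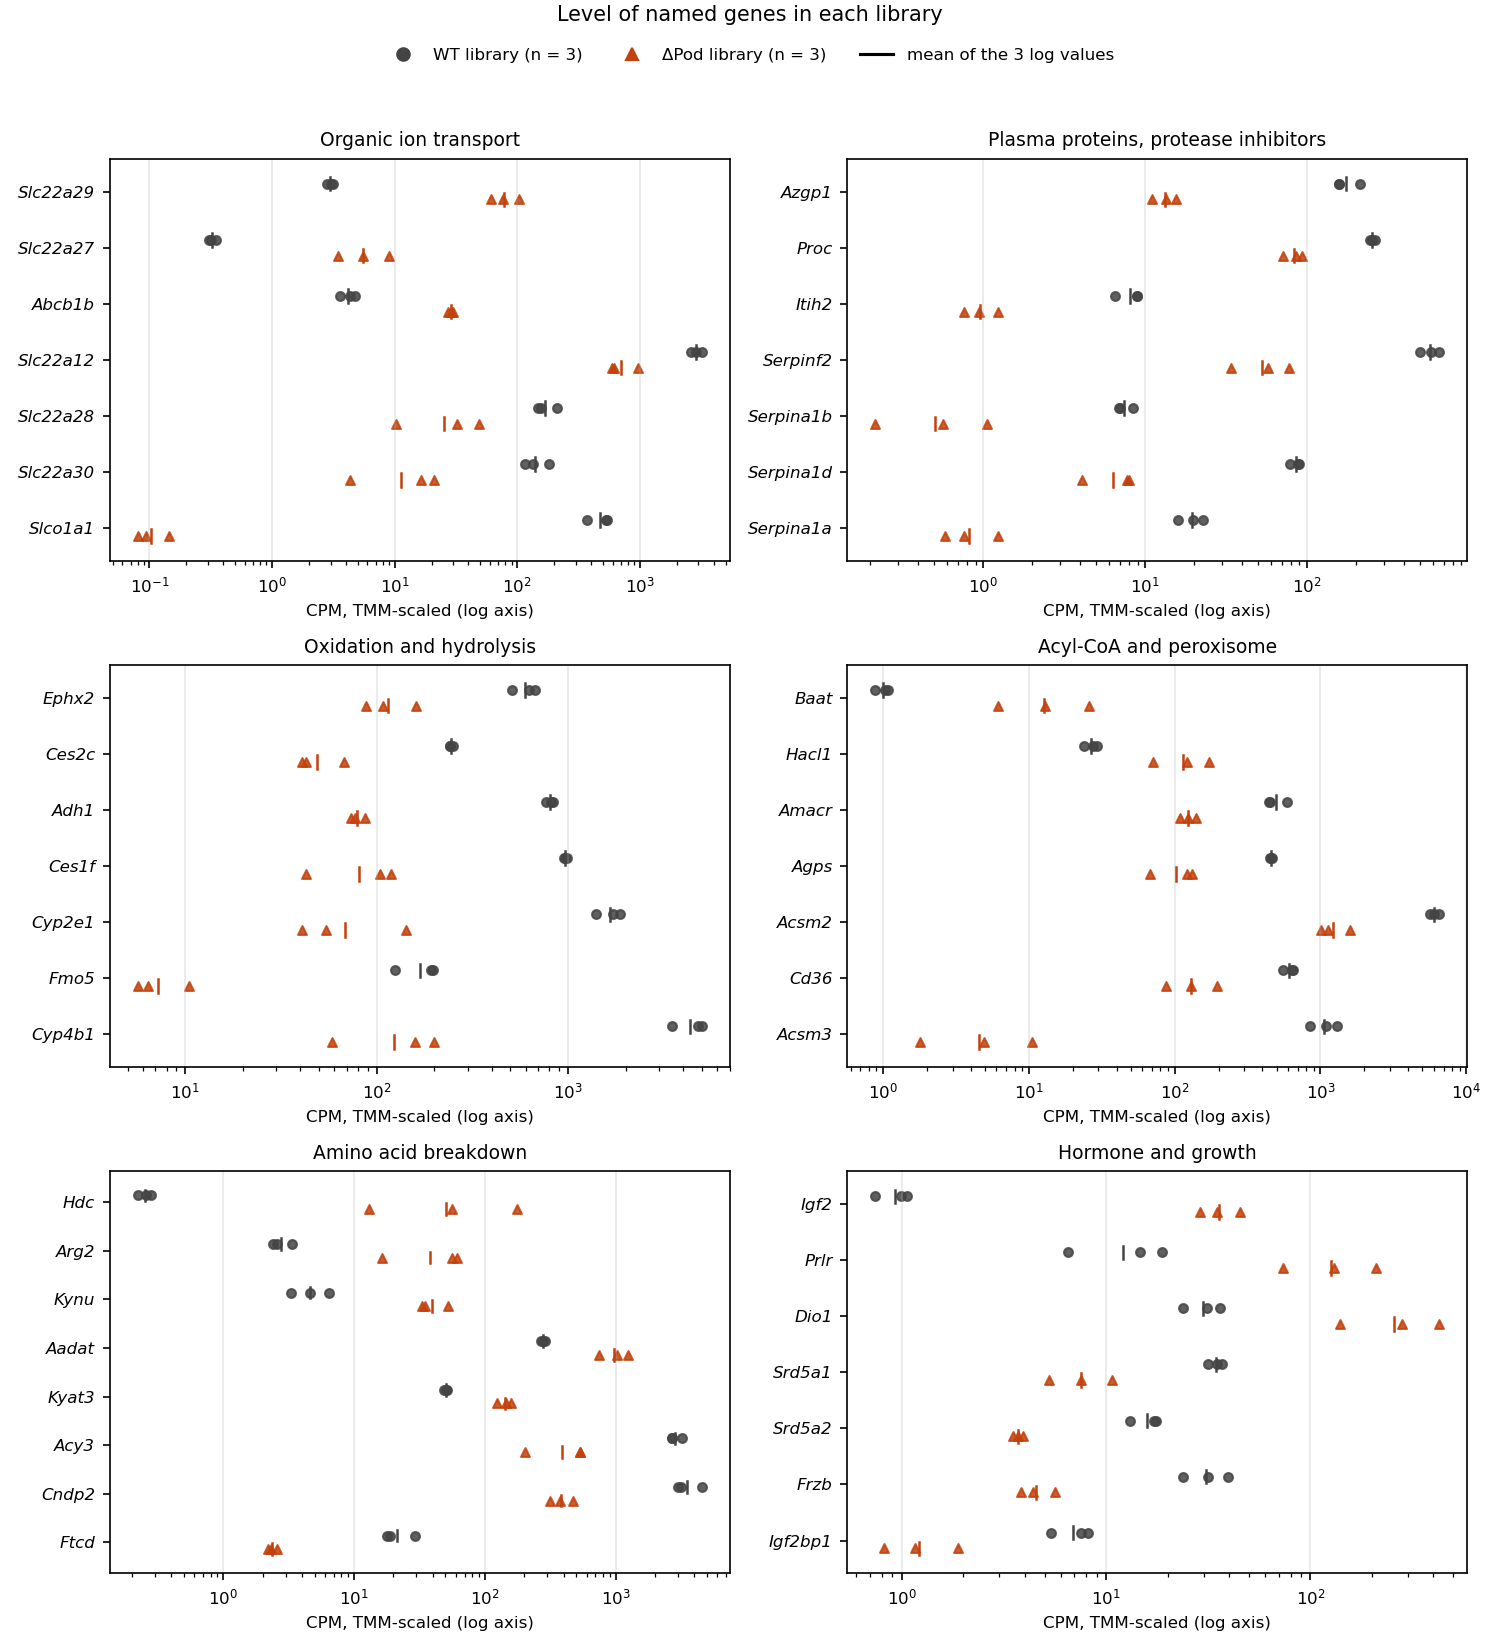
CPM (log axis) of named genes in each WT library (circles) and ΔPod library (triangles), with the mean of the 3 log values as a vertical line. Apart from Slc22a28 all genes drawn were called, and in no panel do the WT and ΔPod values of a gene overlap.

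Enzymes that load acyl groups on coenzyme A and that handle lipids in peroxisomes held calls in both directions. Acsm2, a medium-chain acyl-CoA synthetase of mitochondria (chromosome 7, 119554340 to 119600690), fell from 5998, 5655 and 6526 CPM in WT to 1008, 1125 and 1593 CPM in ΔPod (log2 fold change -2.29, SE 0.31, adjusted p = 0.0153), and its neighbour Acsm3 fell from 848, 1297 and 1087 CPM in WT to 4.92, 1.81 and 10.4 CPM in ΔPod (log2 fold change -7.55, SE 0.86, adjusted p = 0.00913). Acsm2 was among the 10 called genes with the highest CPM, and Acsm3 stood on the male-biased list. Cd36, the fatty acid translocase, fell from 642, 552 and 644 CPM in WT to 129, 196 and 86.9 CPM in ΔPod (log2 fold change -2.16, SE 0.34, adjusted p = 0.0287). It was the only called gene among 65 tested genes of fatty acid uptake, oxidation and PPARA targets, a share of called members near that of all genes, and the list had a median of -0.11. Coasy, which makes coenzyme A, fell from 324, 355 and 333 CPM in WT to 136, 149 and 153 CPM in ΔPod (log2 fold change -1.21, SE 0.22, adjusted p = 0.0478), the smallest change among the called genes.

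Of 34 tested peroxisomal lipid enzymes, chosen after their values were seen, 2 rose and 3 fell. Of these enzymes 13 lay below WT in every ΔPod library (9.47% of all genes did), and the median was -0.63. Hacl1, the lyase that shortens phytanic acid and other branched or hydroxylated fatty acids (chromosome 14, 31598730 to 31641286), rose from 27.7, 29.1 and 24 CPM in WT to 173, 122 and 71.3 CPM in ΔPod (log2 fold change 2.18, SE 0.35, adjusted p = 0.03). An overlapping gene model, Gm49387, had nearly the same values, so the reads of the pair cannot be told apart. Baat, which conjugates bile acids and fatty acids to glycine or taurine, rose from 1.08, 0.888 and 1.04 CPM in WT to 25.8, 12.9 and 6.17 CPM in ΔPod (log2 fold change 3.89, SE 0.65, adjusted p = 0.0327). Both were highest in ΔPod 1 and lowest in ΔPod 3. Amacr, the racemase of branched acyl-CoA, fell from 454, 590.1 and 447 CPM in WT to 124, 139 and 109 CPM in ΔPod (log2 fold change -2, SE 0.28, adjusted p = 0.017). Agps, which makes the ether bond of plasmalogens, fell from 452, 456 and 464 CPM in WT to 121, 131 and 68 CPM in ΔPod (log2 fold change -2.1, SE 0.34, adjusted p = 0.0313).

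Further lipid genes were called outside these lists. Degs2, which desaturates and hydroxylates sphingolipids to phytoceramide (chromosome 12, 108678711 to 108702315), fell from 95.3, 100.4 and 88.6 CPM in WT to 7.49, 10.2 and 12.1 CPM in ΔPod (log2 fold change -3.25, SE 0.29, adjusted p = 0.0051). Mogat1, a monoacylglycerol acyltransferase, fell from 132, 155 and 136 CPM in WT to 32.7, 28.2 and 19.8 CPM in ΔPod (log2 fold change -2.39, SE 0.28, adjusted p = 0.00954). B4galt5, which makes lactosylceramide, fell from 239, 233 and 268 CPM in WT to 68.9, 76.4 and 67.5 CPM in ΔPod (log2 fold change -1.8, SE 0.24, adjusted p = 0.0136). The ΔPod values of each of these 3 genes stood apart from WT by more than the spread within either group, and for Degs2 ΔPod 3 was the library nearest to WT.

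Genes of tryptophan breakdown through kynurenine rose where called. The pathway turns tryptophan into kynurenine, from which branches lead to kynurenic acid, anthranilic acid and NAD. Of 18 tested members of the list, chosen after their values were seen, 4 rose and 0 fell (median -0.19). The 4 include Maoa, a monoamine oxidase, which is not an enzyme of the kynurenine route itself. Kynu, kynureninase (chromosome 2, 43555329 to 43682715), rose from 6.46, 3.26 and 4.6 CPM in WT to 33.3, 34.6 and 52.5 CPM in ΔPod (log2 fold change 3.07, SE 0.36, adjusted p = 0.00954). Aadat, an aminotransferase that makes kynurenic acid (chromosome 8, 60505932 to 60545677), rose from 269.7, 280.2 and 289.9 CPM in WT to 745, 1238 and 1019 CPM in ΔPod (log2 fold change 1.84, SE 0.28, adjusted p = 0.0225), and Kyat3, another such aminotransferase, rose from 51.8, 50.4 and 48.3 CPM in WT to 145, 159 and 124 CPM in ΔPod (log2 fold change 1.51, SE 0.25, adjusted p = 0.0313). Maoa, the monoamine oxidase on chromosome X, rose from 11.8, 12.7 and 10.3 CPM in WT to 36.3, 28.4 and 26 CPM in ΔPod (log2 fold change 1.38, SE 0.25, adjusted p = 0.0489). The other members did not pass. Kyat1, Afmid, which forms kynurenine, Qprt, Aldh8a1 and Kmo lay below WT in every ΔPod library without passing (fold changes -1.96, -1.13, -0.77, -0.62 and -0.37), and Haao and Acmsd overlapped.

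Genes of arginine and histidine handling held 3 higher and 1 lower of 35 tested members, Maoa included. Arg2, the mitochondrial arginase of the late proximal tubule (chromosome 12, 79130777 to 79156301), rose from 2.41, 3.32 and 2.57 CPM in WT to 61.2, 56.5 and 16.2 CPM in ΔPod (log2 fold change 4.01, SE 0.53, adjusted p = 0.0136). ΔPod 3 was the lowest of its ΔPod values. Hdc, which forms histamine from histidine, rose from 0.277, 0.258 and 0.222 CPM in WT to 13.1, 56.4 and 175 CPM in ΔPod, with the highest value in ΔPod 3 and the lowest in ΔPod 1 (log2 fold change 8.32, adjusted p = 0.0136). Ftcd, which passes a carbon unit from histidine to folate, fell from 29.2, 18.8 and 17.8 CPM in WT to 2.21, 2.58 and 2.32 CPM in ΔPod (log2 fold change -3.21, SE 0.36, adjusted p = 0.00791).

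Peptidases and hydrolases of the tubule fell where called. Of 30 tested brush border peptidases and glycosidases, a list that also held cytosolic relatives, 0 rose and 3 fell, with a median of -0.39. Cndp2, the cytosolic dipeptidase that splits cysteinylglycine (chromosome 18, 84667465 to 84685702), fell from 3181, 4566 and 3010.0 CPM in WT to 379, 470.3 and 316 CPM in ΔPod (log2 fold change -3.21, SE 0.35, adjusted p = 0.00791). Acy3, an aminoacylase that removes the acetyl group of mercapturic acids (chromosome 19, 3986570 to 3990007), fell from 3234, 2702 and 2706 CPM in WT to 203, 535 and 538 CPM in ΔPod (log2 fold change -2.76, SE 0.42, adjusted p = 0.0244). Treh, the trehalase of the brush border, fell from 192, 163 and 199.8 CPM in WT to 23.2, 42.3 and 49 CPM in ΔPod (log2 fold change -2.28, SE 0.34, adjusted p = 0.0216). ΔPod 1 was the lowest library for Acy3 and Treh. Lap3, leucine aminopeptidase, not on the list, fell from 767, 775 and 751 CPM in WT to 293, 336 and 265 CPM in ΔPod (log2 fold change -1.36, SE 0.24, adjusted p = 0.0427). Cndp2 and Acy3 were also among the 10 called genes with the highest CPM.

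Enzymes that act on steroids fell where called. Of 40 tested genes of steroid, growth hormone and prolactin signalling 1 rose and 3 fell (median -0.38). Srd5a1 and Srd5a2 encode the steroid 5α-reductases, which turn testosterone into dihydrotestosterone. Srd5a1 (chromosome 13, 69573449 to 69611442) fell from 31.6, 37 and 35.1 CPM in WT to 5.24, 7.5 and 10.7 CPM in ΔPod (log2 fold change -2.14, SE 0.31, adjusted p = 0.0216), and Srd5a2 (chromosome 17, 74016955 to 74047916) fell from 13.1, 17.6 and 17.1 CPM in WT to 3.69, 3.52 and 3.91 CPM in ΔPod (log2 fold change -2.1, SE 0.31, adjusted p = 0.0216). Hsd17b11, a hydroxysteroid dehydrogenase of lipid droplets, fell from 409.7, 459 and 441 CPM in WT to 81.2, 92 and 100.2 CPM in ΔPod (log2 fold change -2.26, SE 0.27, adjusted p = 0.00975). Prlr, the prolactin receptor and a member of the female-biased list, rose from 14.7, 6.53 and 18.7 CPM in WT to 73.5, 131 and 208 CPM in ΔPod (log2 fold change 3.37, SE 0.55, adjusted p = 0.0313). The receptor genes Esr1, Ghr and Nr3c1 were tested in the same list and were not called.

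Dio1, the deiodinase that makes active thyroid hormone in kidney and liver (chromosome 4, 107291465 to 107307169), rose from 31.2, 36.2 and 23.8 CPM in WT to 427, 281 and 139 CPM in ΔPod (log2 fold change 3.21, SE 0.57, adjusted p = 0.0444). ΔPod 1 was highest and ΔPod 3 lowest. Retinol dehydrogenases went both ways: Rdh16f2 rose from 76.8, 88.4 and 52.5 CPM in WT to 1552, 1008 and 451 CPM in ΔPod (log2 fold change 3.79, SE 0.63, adjusted p = 0.0333), its neighbour Rdh19 rose from 0.0832, 0.0859 and 0.0988 CPM in WT to 1.63, 2.2 and 6.11 CPM in ΔPod (log2 fold change 5.16, adjusted p = 0.0136), and Rdh10, which makes retinal for retinoic acid synthesis, fell from 126, 109.7 and 125 CPM in WT to 44.1, 42.9 and 44 CPM in ΔPod (log2 fold change -1.46, SE 0.22, adjusted p = 0.0225). Rdh16, beside them on chromosome 10, lay above WT without passing (log2 fold change 1.02, adjusted p = 0.246), and Rdh5, Rdh11, Rdh13 and Rdh14 overlapped. Rdh16f2 stood on the male-biased list and was higher in ΔPod.

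Sulfated sugar chains of proteoglycans, which line the glomerular filter and the tubule surface, had 4 of 46 tested genes lower and 0 higher (median -0.36), on a list chosen after its values were seen. Chst7, a sulfotransferase on chromosome X, fell from 68.6, 87 and 59.1 CPM in WT to 8.1, 7.64 and 3.31 CPM in ΔPod (log2 fold change -3.5, SE 0.47, adjusted p = 0.0138). Chst11, the chondroitin 4-sulfotransferase (chromosome 10, 82985498 to 83195900), fell from 85.9, 52.5 and 87.6 CPM in WT to 1.59, 5.16 and 8.5 CPM in ΔPod (log2 fold change -3.88, SE 0.63, adjusted p = 0.0313), and Csgalnact1, which starts chondroitin chains, fell from 36.2, 29.1 and 20.1 CPM in WT to 5.86, 4.59 and 3.51 CPM in ΔPod (log2 fold change -2.61, SE 0.36, adjusted p = 0.0153). Sdc2, syndecan 2, a carrier of heparan sulfate, fell from 157, 138 and 159 CPM in WT to 43.5, 48.2 and 41.5 CPM in ΔPod (log2 fold change -1.77, SE 0.22, adjusted p = 0.0123). For Chst11 the WT 2 value was the lowest in WT and ΔPod 1 the lowest in ΔPod, and for Sdc2 the values within each group lay close together.

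Matrix and Wnt genes gave single calls. Of 57 tested collagens, laminins and matrix genes 0 were called, and the 2 with the smallest p were Lamb3 and Col12a1 (fold changes -1.11 and 1.06). Col6a6, a collagen VI chain outside that list, fell from 11.6, 3.09 and 6.5 CPM in WT to 0.0362, 0.117 and 0.0403 CPM in ΔPod (log2 fold change -6.67, SE 0.85, adjusted p = 0.013). Pcolce2, which enhances procollagen processing, rose from 1.16, 1.32 and 1.38 CPM in WT to 8.14, 8.72 and 6.55 CPM in ΔPod (log2 fold change 2.59, SE 0.41, adjusted p = 0.0299). Frzb, a secreted Wnt antagonist (chromosome 2, 80411970 to 80447625), fell from 39.6, 23.7 and 31.5 CPM in WT to 5.64, 4.41 and 3.83 CPM in ΔPod (log2 fold change -2.77, SE 0.32, adjusted p = 0.00954). Sp5, a transcription factor gene that Wnt signals induce, fell from 28.1, 28.7 and 23.9 CPM in WT to 10.3, 11 and 12.1 CPM in ΔPod (log2 fold change -1.27, SE 0.23, adjusted p = 0.0486). Frzb was 1 of 3 called genes, with Igf2 and the receptor gene Galr2, among 66 tested genes of the growth factor axis and secreted regulators (median 0.02).

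Immune and injury lists held few calls. Of 43 tested tubular injury genes 1 rose and 1 fell (median 0.21), of 49 interferon response genes 1 rose (median 0.53), of 55 Toll-like receptor, inflammasome and cytokine genes 1 fell (median 0.21), and of 28 complement and 32 antigen presentation genes 0 were called. Apart from the injury list, these shares of called genes lay near that of all genes. Above WT in every ΔPod library lay 10 of the 49 interferon response genes and 12 of the 55 Toll-like receptor, inflammasome and cytokine genes (8.73% of all genes did). Below WT in every ΔPod library lay 2 and 3 of them (9.47% of all genes did). The interferon response genes summed to 397, 469 and 396 CPM in WT and 792, 718 and 477 CPM in ΔPod. Il34, a ligand of the macrophage receptor CSF1R that tubule cells secrete, fell from 26.1, 39.6 and 32.8 CPM in WT to 5.24, 7.01 and 6.45 CPM in ΔPod (log2 fold change -2.39, SE 0.29, adjusted p = 0.00954), while macrophage markers overlapped. Spp1 (osteopontin) rose from 794, 735 and 692 CPM in WT to 2187, 2066 and 1859.8 CPM in ΔPod (log2 fold change 1.46, SE 0.26, adjusted p = 0.0467) and stood on the female-biased list too. Gbp3, an interferon-induced GTPase (chromosome 3, 142560026 to 142573209), rose from 4.8, 7.16 and 5.19 CPM in WT to 57.4, 93.9 and 37.6 CPM in ΔPod (log2 fold change 3.46, SE 0.45, adjusted p = 0.0136). Gimap8, a GTPase of the immunity-associated family, rose from 6.96, 7.76 and 7.61 CPM in WT to 31, 28.6 and 21.3 CPM in ΔPod (log2 fold change 1.85, SE 0.26, adjusted p = 0.017). Lymphocyte markers summed to 8.12 to 11.6 CPM in WT and 14.8 to 17.5 CPM in ΔPod, without overlap and with 0 of 7 called, and their part in the Gimap8 value was not tested.

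Several receptors outside the hormone list fell. Fcamr, a receptor for the Fc part of IgM and IgA (chromosome 1, 130800902 to 130814740), fell from 29.8, 16 and 27.6 CPM in WT to 0.687, 1.13 and 1.63 CPM in ΔPod (log2 fold change -4.4, SE 0.47, adjusted p = 0.00791). Timd2, a receptor of the TIM family that takes up ferritin, fell from 102, 132 and 116 CPM in WT to 7.2, 3.68 and 7.01 CPM in ΔPod (log2 fold change -4.29, SE 0.67, adjusted p = 0.0286) and was on the male-biased list. Sucnr1, the receptor of succinate, fell from 57.8, 64.6 and 39.9 CPM in WT to 21.7, 14.9 and 17.2 CPM in ΔPod (log2 fold change -1.59, SE 0.29, adjusted p = 0.0467). Capg, an actin-capping protein, rose from 15.3, 16.5 and 10.6 CPM in WT to 136, 120.5 and 49.3 CPM in ΔPod (log2 fold change 2.85, SE 0.46, adjusted p = 0.03), and Mcoln2, a cation channel of endosomes, rose from 1.14, 1.2 and 0.84 CPM in WT to 7.99, 10.01 and 2.9 CPM in ΔPod (log2 fold change 2.71, SE 0.47, adjusted p = 0.0381). ΔPod 3 was the lowest ΔPod library for Capg and Mcoln2.

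Transcription factor and stress genes were called singly. Cebpd, a factor of the acute phase response (chromosome 16, 15887286 to 15891031), rose from 7.87, 9.53 and 5.96 CPM in WT to 38.6, 39.1 and 33 CPM in ΔPod (log2 fold change 2.24, SE 0.3, adjusted p = 0.0138), the only call among 49 transcription factors of tubule cells (median -0.26). Atf3, a factor induced by stress, rose from 0.749, 1.69 and 1.31 CPM in WT to 5.71, 4.71 and 6.83 CPM in ΔPod (log2 fold change 2.2, SE 0.36, adjusted p = 0.0319), the only call among 30 immediate early genes, whose median was 1.23. Gadd45g of the same list read 32.4, 37.6 and 27.2 CPM in WT and 123, 75.7 and 78.3 CPM in ΔPod and did not pass (adjusted p = 0.0638). Among 35 NRF2 targets 3 rose (Cbr1, Gsta2 and Gsta4) and 1 fell (Me1), and the median was -0.40.

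Energy metabolism gave few calls. Of 31 tested genes of gluconeogenesis and ammonia production 1 rose and 2 fell (median -0.43). Ldhd, the dehydrogenase of D-lactate (chromosome 8, 111623785 to 111630374), fell from 894, 1524 and 1365 CPM in WT to 199, 288 and 427 CPM in ΔPod (log2 fold change -2.05, SE 0.37, adjusted p = 0.047). Me1, the malic enzyme that makes NADPH, fell from 553, 494 and 575 CPM in WT to 177, 183 and 204 CPM in ΔPod (log2 fold change -1.52, SE 0.24, adjusted p = 0.0283). Fbp2, the muscle form of fructose bisphosphatase, rose from 18, 15.9 and 13.5 CPM in WT to 85.8, 60.3 and 36.4 CPM in ΔPod (log2 fold change 1.95, SE 0.36, adjusted p = 0.0489), with the highest value in ΔPod 1. Car9, a carbonic anhydrase and hypoxia target, fell from 16.8, 11.3 and 13.5 CPM in WT to 1.34, 2.84 and 2.98 CPM in ΔPod (log2 fold change -2.53, SE 0.38, adjusted p = 0.0224), 1 of 30 hypoxia genes (median -0.19).

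Of 17 tested genes of cold shock domain proteins and of the Igf2bp family of RNA-binding proteins, 0 rose and 1 fell (median -0.51). The gene that fell belongs to the Igf2bp family. Igf2bp1, which binds the Igf2 and other messenger RNAs (chromosome 11, 95957163 to 96005940), fell from 7.54, 5.38 and 8.13 CPM in WT to 1.16, 0.821 and 1.89 CPM in ΔPod (log2 fold change -2.44, SE 0.4, adjusted p = 0.0325). Ybx3 read 64.2, 64.1 and 64.7 CPM in WT and 29.1, 41.9 and 57.8 CPM in ΔPod (log2 fold change -0.58, adjusted p = 0.389) and Ybx2 10.2, 9.73 and 8.95 CPM in WT and 6.47, 9.28 and 12.4 CPM in ΔPod (log2 fold change -0.03, adjusted p = 0.953), and neither passed. Igf2, the imprinted growth factor (chromosome 7, 142650766 to 142666816), rose from 0.998, 0.744 and 1.06 CPM in WT to 28.7, 45.1 and 35.1 CPM in ΔPod (log2 fold change 5.27, SE 0.58, adjusted p = 0.00791). Its antisense transcript Igf2os had no count in WT and 2.13, 2.84 and 1.55 CPM in ΔPod (adjusted p = 0.019). The Igf2 locus holds overlapping models on both strands, and without a stated strand setting their reads cannot be told apart. Of 32 tested imprinted genes these 2 rose and 0 fell (median 0.11), and Nap1l5, an imprinted gene outside the list, rose from 4.46, 3.15 and 4.55 CPM in WT to 17.9, 26.4 and 16 CPM in ΔPod (log2 fold change 2.31, SE 0.31, adjusted p = 0.0138).

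Cell division genes were called singly and in both directions. Of 43 tested genes of cell cycle and mitosis 0 rose and 1 fell (median 0.09). Cenpe, a kinesin of the kinetochore, fell from 2.69, 3.55 and 2.27 CPM in WT to 0.543, 0.563 and 0.806 CPM in ΔPod (log2 fold change -2.14, adjusted p = 0.0359). Kif20b, a kinesin of cytokinesis, fell from 11.6, 32.6 and 14.3 CPM in WT to 2.03, 2.18 and 1.09 CPM in ΔPod (log2 fold change -3.47, SE 0.56, adjusted p = 0.0313), with WT 2 the highest of all, and Spc25, of the kinetochore NDC80 complex, rose from 11.1, 20.6 and 17.3 CPM in WT to 92.6, 78.7 and 42.5 CPM in ΔPod (log2 fold change 2.13, SE 0.39, adjusted p = 0.0489). Radx, which binds single-stranded DNA at replication forks, rose from 1.08, 0.888 and 0.89 CPM in WT to 17.1, 11 and 4.51 CPM in ΔPod (log2 fold change 3.51, SE 0.51, adjusted p = 0.0216).

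Several ranked genes have no place in a list. Bex4, on chromosome X, rose from 6.79, 8.22 and 6.94 CPM in WT to 39.5, 34.8 and 18.1 CPM in ΔPod (log2 fold change 2.07, adjusted p = 0.0444), and its neighbour Bex1 rose from 2.11, 1.98 and 1.68 CPM in WT to 6.26, 6.42 and 5.88 CPM in ΔPod (log2 fold change 1.69, adjusted p = 0.0333). Ccdc170, a coiled-coil protein, rose from 1.72, 1.03 and 2.22 CPM in WT to 12.1, 25.1 and 14.6 CPM in ΔPod (log2 fold change 3.38, SE 0.44, adjusted p = 0.0136). Eva1c rose from 1.33, 1.43 and 0.914 CPM in WT to 8.32, 11.1 and 6.65 CPM in ΔPod (log2 fold change 2.82, adjusted p = 0.0184), and Kcnip2, a subunit of potassium channels, rose from 1.75, 0.716 and 0.914 CPM in WT to 5.14, 11.1 and 8.26 CPM in ΔPod (log2 fold change 2.85, adjusted p = 0.0465). Wdfy1, an endosomal protein whose level is known to vary between mouse strains (chromosome 1, 79702262 to 79776143), fell from 71.4, 66.9 and 72.2 CPM in WT to 7.56, 8.39 and 8.26 CPM in ΔPod (log2 fold change -3.12, SE 0.29, adjusted p = 0.00555), 1 call among 18 tested genes known to vary between strains or substrains (median -0.53). Its values within each group lay close together. The supplier of the ΔPod animals is not in the labels, so genotype and source of the animals cannot be told apart. Sh3bp2, an adaptor of signalling in immune cells and bone, fell from 28.9, 34.1 and 29.9 CPM in WT to 5.39, 9.12 and 6.95 CPM in ΔPod (log2 fold change -2.11, adjusted p = 0.0299), and Cmtm6, which keeps PD-L1 at the cell surface, fell from 433, 407 and 427 CPM in WT to 91.4, 154 and 142 CPM in ΔPod (log2 fold change -1.71, adjusted p = 0.0359).

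**Figure D4:**
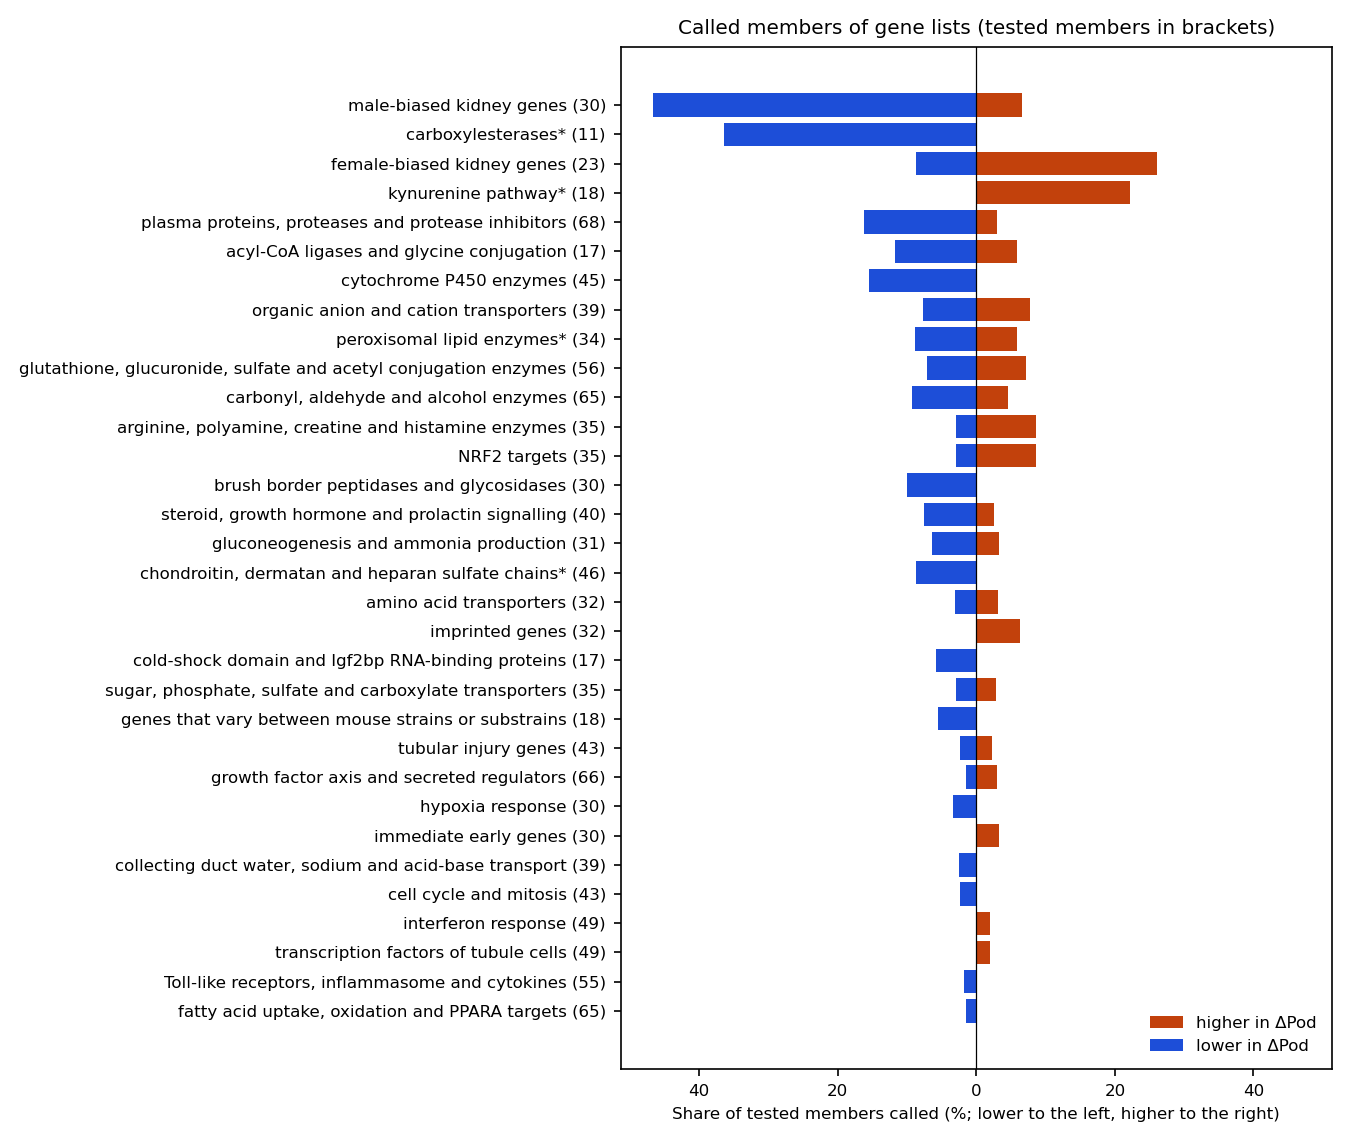
Share of tested members called higher (right) and lower (left) in ΔPod for gene lists with a called member, without the Y-linked genes and cell type markers, with the number of tested members in brackets and an asterisk for lists chosen after values were seen. Male-biased kidney genes (14 of 30 lower) and carboxylesterases (4 of 11 lower) have the largest shares lower among the lists drawn, and female-biased kidney genes (6 of 23) the largest share higher.

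Of 60 gene lists first written, 30 held a called gene. All 4 tested Y-linked genes were lower. Apart from them the sex-biased lists led, with 14 of 30 male-biased genes lower and 2 higher (median -2.94) and 6 of 23 female-biased genes higher and 2 lower (median 1.44). The 2 genes of the male-biased list that rose were Gsta4 and Rdh16f2, and the 2 of the female-biased list that fell were Adh1 and Cyp2a4. Whether each listed gene has that bias in kidney was not tested, because the labels give no sex. Among 13 tested genes that escape X inactivation 0 were called, and 7 lay above WT in every ΔPod library (8.73% of all genes did).

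The lists without a called gene included several basic functions of the tubule. Of 38 endocytic receptors and lysosomal genes 0 were called and 10 lay below WT in every ΔPod library (9.47% of all genes did), with Gusb, a lysosomal glucuronidase, and Amn, a partner of cubilin in protein uptake, at fold changes of -1.37 and -0.69. Of 30 heat shock proteins 12 lay below WT in every ΔPod library and 0 were called, with a median of -0.66. Dnaja4 and Dnaja1, co-chaperones of HSP70, had the smallest p of that list (fold changes -0.95 and -0.82). Of 50 sterol and fatty acid synthesis genes 0 were called, with Mvd at -0.95 and Elovl6 at 2.16. Of 33 unfolded protein response genes 0 were called, with Xbp1 at -0.77 and Dnajb11 at -0.69. Of 23 clock genes 0 were called, and Npas2 read 20.04, 10.1 and 23.4 CPM in WT and 1.52, 3.54 and 4.43 CPM in ΔPod (adjusted p = 0.0564). Salt transport of the thick limb and distal tubule (0 of 41, Sgk1 at 1.45), calcium and phosphate hormones (0 of 22, Stc2 at 1.15) and the renin-angiotensin system (0 of 15, Mas1 at -2.51) held no call.

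With the length slope as a covariate many more genes passed, 2544 (14.1%), 1100 higher (6.09%) and 1444 lower (7.99%), and all 178 genes were still called. On that scale 12 of 30 heat shock proteins were lower and 0 higher, 19 of 30 immediate early genes higher and 0 lower, 12 of 34 peroxisomal lipid enzymes lower and 3 higher, and 10 of 50 sterol and fatty acid synthesis genes lower and 3 higher. For fatty acid uptake and oxidation 8 of 65 were lower and 6 higher, and for the collagens, laminins and matrix genes 4 of 57 were lower and 1 higher. Podocyte markers had 1 of 10 higher, Plce1, a phospholipase of the podocyte (0.75, adjusted p = 0.0243).

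Genes near the deleted locus were examined because the ΔPod mice carry an altered Ybx1 allele. Of 207 tested genes that start within 10 Mb of Ybx1 on chromosome 4, 0 rose and 2 fell (0.966%, median -0.11), close to the 0.985% over all genes. The 2 were Cyp4b1 and Cyp4a12a, which start at -3.65 and -3.98 Mb from the start of Ybx1. Both lie in a cluster of Cyp4 genes.

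**Figure D5:**
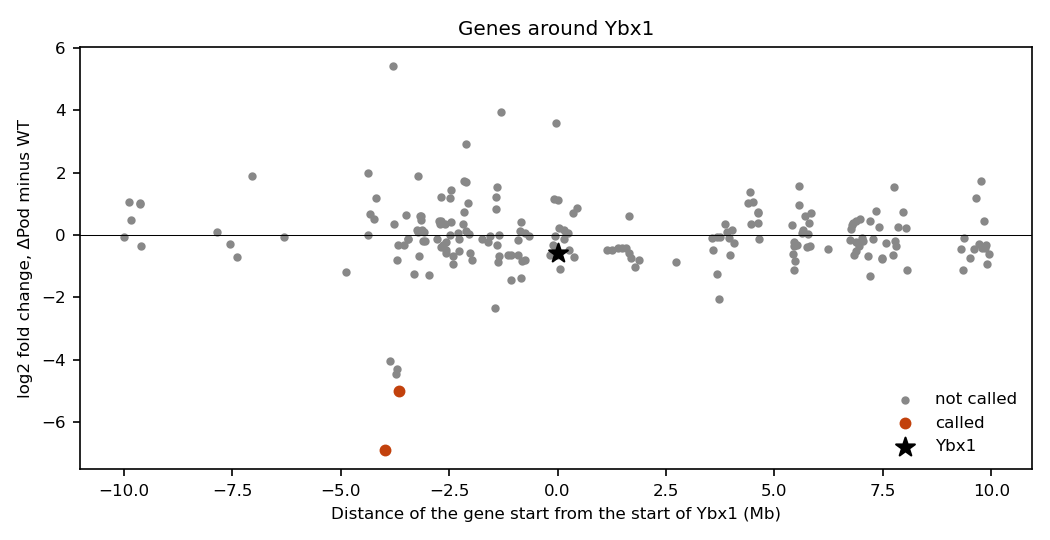
Log2 fold change, ΔPod against WT, of the 207 tested genes that start within 10 Mb of Ybx1, by distance from its start in Mb, with called genes in orange and Ybx1 as a star. The called genes are Cyp4a12a and Cyp4b1, at -3.98 and -3.65 Mb, and the genes nearest to Ybx1 were not called.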

How the data were processed

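Polyadenylated RNA of whole kidney was measured in 9 libraries, 3 of each of 3 groups, which were grouped by the labels alone. The authors deposited raw counts by gene symbol, as whole numbers, in separate tables for each mutant with WT. ScriptSeq v2, a kit that keeps strand information, was used per the labels' protocols. The build mm10 and the tools STAR 2.7.3a, featureCounts 2.0.1, Trim Galore 0.6.3, FastQC 0.11.9, DESeq2 1.30.0 and MultiQC 1.10.1 stand in the submitters' processing notes, which assign them no role. How strand and multiple matches were counted is not given in the sources used here, which leaves similar copies, overlapping models and antisense pairs uncertain. No column of another sample was used.

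The tables shared 52163 symbols, 3 of which had unequal WT counts and were left out. Together with 19 symbols that only the ΔPod table held, they gave 18 genes that a fit of the 6 libraries could test, and 0 passed. The counts were fitted with edgeR 4.0.16 in R 4.3.3: filterByExpr, TMM factors, 1 quasi-likelihood fit of all 9 libraries with a group term, and Benjamini-Hochberg adjustment over 18067 genes at a false discovery rate of 0.05. Positions and lengths are from GENCODE vM21 on mm10, which matched 17599 symbols (97.4%). The labels do not say that libraries came from separate animals, so p-values measure the spread between these samples. An exact permutation test of 3 against 3 cannot go below 0.1, so none was run. Floors cover counting error only. Tested on simulated data, the fit recovered 32 of 100 genes changed by 3 on the log2 scale and 1 of 100 changed by 1. Many true changes would therefore be missed. There was 1 false call among 18067 genes. The simulation drew each gene independently, without the differences in transcript length, ribosomal genes or fat between the real libraries. Its false calls therefore do not measure those in the real data.

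The comparison, gene lists, tests and alternatives were chosen with earlier results of these data known, and 4 lists (kynurenine pathway, carboxylesterases, sulfated sugar chains and peroxisomal lipid enzymes) were added after the values were seen. Lists are described by their counts and medians without a test. Genes were named by rule: Ybx1 and the podocyte markers, the called genes ranked 11 to 40 by fold change in each direction (log2 CPM averaging 1 or more, groups apart, predicted genes and pseudogenes left out), up to 6 called members of each list by p, up to 2 members of lists without a call, whole families called in both directions, and the 10 called genes with the highest CPM. Genes named outside this rule, such as Amacr, Agps, B4galt5, Bex1, Cmtm6, Coasy, Cpb2, Cpe, Csgalnact1, Ephx2, Kyat3, Lap3, Mogat1, Proc, Sdc2, Serpinc1, Sh3bp2, Sp5, Sucnr1, Xist, the members named as overlapping or not passing, were chosen after their values were seen. A few genes within the rule are not reported here. The alternatives were RLE, upper quartile or no scaling factors, DESeq2 1.42.0, other filters, only the 6 libraries, a replicate block, each library's transcript-length slope fitted as a covariate or its sign as a term, and leaving out each of the 6 libraries.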

Additional observations from a re-analysis of the deposited data

How the results depend on the processing

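Against 178 called genes in the analysis as reported, DESeq2 called 998, a fit of only the 6 libraries compared called 54, and the fits with the length slope as a covariate or the length class as a term called 2544 and 715. Leaving out a library gave 23 to 411 called genes. Of the 103 called genes selected by rank, list or level, 42 remained called in the fit of the 6 libraries and 23 to 101 when a library was left out. Lists with a called gene numbered 30, and 49 with the length slope. RLE, upper quartile and library size scaling and the other filters gave 140 to 184 called genes, and the window around Ybx1 held 2 calls at 5 Mb as at 10 Mb. The share of higher genes among those called was 40.4%, 55.4% with DESeq2, 56.2% without ΔPod 3 and 13 to 20.6% without a WT library. The median fold change of all genes was 0.08, and 0.26 with upper quartile scaling and 0.30 without a filter.

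With the replicate number as a block, 270 genes were called, 168 of the 178 among them. Deviations from the group means correlated at -0.62, 0.441 and 0.715 between libraries of the same number, so the numbers were not taken to pair the samples, and WT 2 with ΔPod 1 correlated best (0.803). Depth limits genes near 0.0253 CPM in ΔPod (3 counts over the group), such as Apoh and Slco1a1, whose fold changes rest on few counts there.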

Other observations

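Some called genes outside the ranks named in the report, most of them below the level required for ranking, are given here as values and were chosen after these were seen. Atp13a4, a transport ATPase of endosomes (chromosome 16, 29395853 to 29544864 in mm10), had no count in WT and 1.7, 2.09 and 7.28 CPM in ΔPod. Neurog2, a transcription factor of nerve cell precursors, read 2.58, 4.01 and 3.21 CPM in WT and had no count in ΔPod. Cntnap5a, a neurexin-like membrane protein, fell from 2.55, 2.26 and 4.79 CPM in WT to 0.0362, 0.0234 and 0.0605 CPM in ΔPod (log2 fold change -6.17, SE 0.81, adjusted p = 0.0136), and Kcng1, a modifier of potassium channels, fell from 6.32, 2.86 and 5.12 CPM in WT to 0.145, 0.188 and 0.484 CPM in ΔPod (log2 fold change -4.08, SE 0.69, adjusted p = 0.0359). Pjvk, pejvakin, a protein of hair cells in the ear, rose from 0.111, 0.115 and 0.173 CPM in WT to 1.81, 2.41 and 2 CPM in ΔPod (log2 fold change 3.92, SE 0.44, adjusted p = 0.00797). Cfap91, a protein of motile cilia, rose from 0.139, 0.0859 and 0.198 CPM in WT to 3.94, 4.36 and 1.45 CPM in ΔPod (log2 fold change 4.48, adjusted p = 0.0376), and Cfap69, another, rose from 2.63, 2.86 and 2.59 CPM in WT to 12, 7.41 and 7.15 CPM in ΔPod (log2 fold change 1.71, adjusted p = 0.0489). Lgals12, a galectin of fat cells, rose from 0.25, 0.258 and 0.297 CPM in WT to 2.24, 2.95 and 1.43 CPM in ΔPod (log2 fold change 3.03, adjusted p = 0.0244). The summed fat cell markers were 143, 6.68 and 0.52 CPM in these ΔPod libraries, whereas Lgals12 was highest in ΔPod 2, and the part of fat in its value was not tested.

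The called noncoding and predicted genes included Gm53, a long noncoding RNA that rose from 11.7, 12.3 and 11.1 CPM in WT to 28.4, 31.1 and 32.1 CPM in ΔPod (log2 fold change 1.39, adjusted p = 0.039), Gm40663, which rose from 0.471, 0.286 and 0.272 CPM in WT to 14.8, 10.5 and 5.36 CPM in ΔPod (log2 fold change 4.88, adjusted p = 0.00913), and BC049987, which fell from 17.4, 29.3 and 18.4 CPM in WT to 1.66, 2.58 and 1.03 CPM in ΔPod (log2 fold change -3.62, adjusted p = 0.00954). BC049987 starts beside the trehalase gene Treh on chromosome 9, which also fell.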
